A study of Mus musculus with 31 samples.

Results

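Interferon-stimulated genes were followed in the distal colon of mice of a chemically induced model of colitis-associated colorectal cancer, with and without oral E171. The group holds 9 genes (Ifit1, Ifit2, Ifit3, Isg15, Usp18, Irf7, Oasl2, Rsad2 and Gbp2), taken by their gene names in the array files. They were represented by 11 of 56605 probes, and all 9 were among the 19797 genes tested. All mice were of the BALB/c strain, were 4 to 6 weeks old when obtained, and had received 1 injection of the carcinogen azoxymethane (AOM) a week before the experiment and the colitis-inducing polymer dextran sodium sulphate (DSS) in the drinking water from day 1 to day 5, so that the mice of 2 days were sampled during DSS and those of the later days after it. Mice named CRC were gavaged with water and mice named CRC + E171 with 5 mg/kg bw/day of E171, food-grade titanium dioxide, on 5 days per week. Separate mice were sampled after 2, 7, 14 and 21 days, with 1 array per mouse and 2 males and 2 females in each of the 8 groups except CRC at 21 days, which held 1 male and 2 females. No mice without AOM and DSS were analysed here, so every value describes E171 in mice that also received AOM and DSS.

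Interferons are secreted when receptors sense foreign or misplaced nucleic acids. Type I and type III interferons signal through JAK kinases to target promoters that hold the interferon-stimulated response element (ISRE). Type II interferon, interferon gamma, made by T and NK cells, acts on promoters that hold the gamma-activated site (GAS). In the gut these genes respond to viruses, to the microbiota and to inflammation. Among the 9 genes, Ifit1, Ifit2 and Ifit3 encode proteins that bind viral RNA or partner with each other. Isg15 encodes a ubiquitin-like modifier and Usp18 the protease that removes it and damps receptor signalling. Irf7 encodes a transcription factor that amplifies interferon production. Oasl2 belongs to the oligoadenylate synthetase family, Rsad2 encodes viperin, and Gbp2 encodes a guanylate-binding protein that interferon gamma also induces.

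The promoters are shown first. The members were chosen as interferon-stimulated genes, which respond through the ISRE, so its presence in them is not independent of that choice. A promoter entry of RefSeq on the mouse build GRCm38.p6 was found for 8 of the 9 genes (not Usp18), and the 250 bases before each transcription start were searched. The ISRE core was searched as GAAA, any 2 bases and GAAA again, which reads TTTC, any 2 bases and TTTC on the other strand. It lay in 5 of the 8 genes, which is 5 of their 9 promoters, and in 2.98% of 32851 mouse promoters. These 5 are printed 5′ to 3′ in the direction of transcription, with the matches in capitals, at chr4:156200819-156201068 on the minus strand for Isg15, chr19:34640639-34640888 on the plus strand for Ifit1, chr19:34583279-34583528 on the plus strand for Ifit3, chr12:26456453-26456702 on the minus strand for Rsad2 and chr3:142620413-142620662 on the plus strand for Gbp2.
Isg15: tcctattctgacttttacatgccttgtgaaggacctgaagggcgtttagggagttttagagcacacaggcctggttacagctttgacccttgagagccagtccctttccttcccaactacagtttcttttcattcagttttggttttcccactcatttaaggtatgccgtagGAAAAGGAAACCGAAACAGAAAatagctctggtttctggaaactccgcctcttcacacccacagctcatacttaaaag
Ifit1: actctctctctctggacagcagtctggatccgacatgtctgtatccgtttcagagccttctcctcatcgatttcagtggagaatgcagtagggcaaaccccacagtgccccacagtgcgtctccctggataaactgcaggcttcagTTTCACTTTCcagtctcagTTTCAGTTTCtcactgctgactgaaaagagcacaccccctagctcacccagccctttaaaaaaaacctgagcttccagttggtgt
Ifit3: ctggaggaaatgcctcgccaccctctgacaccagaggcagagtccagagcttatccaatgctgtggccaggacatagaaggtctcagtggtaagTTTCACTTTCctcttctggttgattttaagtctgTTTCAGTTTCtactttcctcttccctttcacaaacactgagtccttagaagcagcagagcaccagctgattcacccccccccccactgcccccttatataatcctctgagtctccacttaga
Rsad2: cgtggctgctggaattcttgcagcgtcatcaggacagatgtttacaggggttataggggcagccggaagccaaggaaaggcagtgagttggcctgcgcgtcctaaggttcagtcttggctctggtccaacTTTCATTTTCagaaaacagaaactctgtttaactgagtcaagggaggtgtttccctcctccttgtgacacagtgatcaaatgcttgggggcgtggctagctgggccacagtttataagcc
Gbp2: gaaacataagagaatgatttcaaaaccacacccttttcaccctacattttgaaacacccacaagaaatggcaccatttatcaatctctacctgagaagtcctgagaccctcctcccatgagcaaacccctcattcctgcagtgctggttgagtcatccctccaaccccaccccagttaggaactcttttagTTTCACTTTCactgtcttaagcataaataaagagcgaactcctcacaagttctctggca
The Isg15 promoter held 3 overlapping matches, the first of them beginning 78 bases before the start. Ifit1 held 2 matches at 104 and 85 bases, Ifit3 held 2 at 156 and 122 bases, and Rsad2 and Gbp2 held 1 each at 120 and 59 bases. Of all promoters, 0.18% held 2 or more. These letters were not found in the windows of Ifit2 (at either of its 2 starts), Irf7 and Oasl2. The GAS letters TTCNNNGAA, which read the same on both strands, were found only in the window of an Ifit2 start, against 7.02% of all promoters. A match describes the letters and does not show that a factor was bound.

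**Figure D1:**
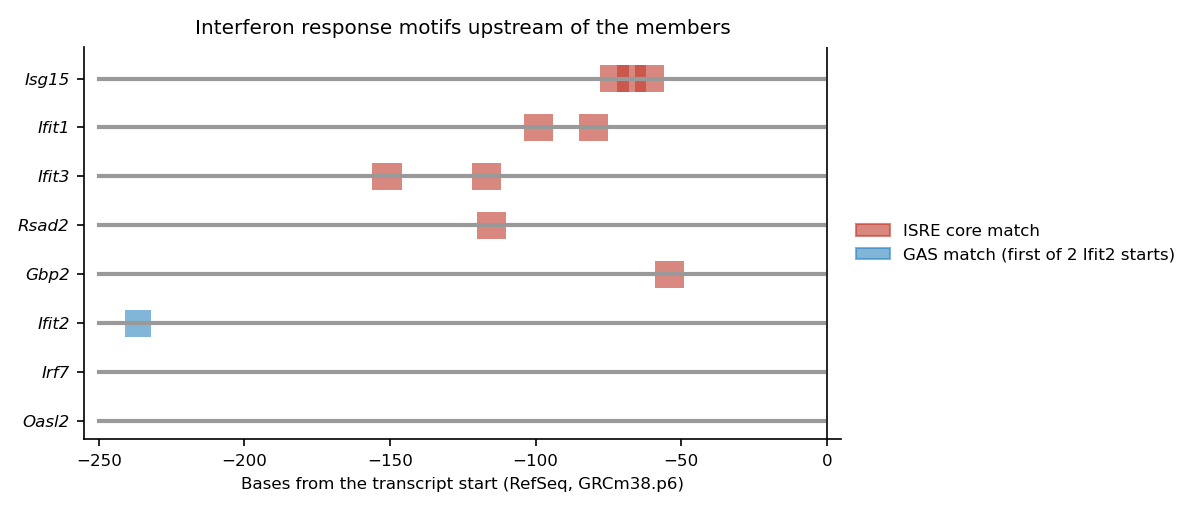
Position of ISRE core and GAS matches in the 250 bases before the start of each gene with a promoter entry. Distance in bases before the transcription start is on the horizontal axis and each line is a gene; ISRE matches lie in Isg15, Ifit1, Ifit3, Rsad2 and Gbp2, and the single GAS match in Ifit2.

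Each of Gbp2, Ifit1, Ifit2, Ifit3, Isg15, Oasl2 and Usp18 had 1 probe and Irf7 and Rsad2 had 2. In the build of the array files (mm9) the 3 Ifit probes lie together on chr19, between 34650244 (Ifit2) and 34723886 (Ifit1). The other probes begin at chr3:142300719 (Gbp2), chr4:155573649 (Isg15), chr5:115362168 (Oasl2), chr6:121220874 (Usp18), chr7:148449104 and chr7:148450664 (Irf7) and chr12:27127859 and chr12:27135585 (Rsad2). No member probe was saturated or flagged on any array. Of the 11 probes, 10 were well above background on all 31 arrays and 1 for Rsad2 on 28. Paired probes of a gene moved together over the 31 arrays, with r = 0.96 for Irf7 and 0.97 for Rsad2, and were averaged.

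On the arrays, 67.4 to 78.9% of spots were well above background. Colon identity was checked with fixed marker genes, each centred on its mean over the arrays. The value of a list on an array is the median of its centred genes, so single genes can lie outside the ranges given. Counts in brackets are the genes measured of those listed. The arrays that stood apart were both males of CRC at 7 days and male 2 of CRC + E171 at 14 days. Their colonocyte markers (6 of 6 measured, among them Car1 and Slc26a3) lay at -6.93 to -3.55 on the log2 scale against -0.57 to 1.43 on the other 28 arrays, and their goblet cell markers (5 of 5) at -7.03 to -3.10 against -0.18 to 1.23. Their neutrophil markers (7 of 7) lay at 2.63 to 6.12 against -1.89 to 1.74. Male 1 of CRC at 7 days also had skeletal muscle markers (6 of 6) at 7.37 and squamous epithelium markers (3 of 5 measured) at 7.93, and male 2 pancreatic acinar markers (5 of 6 measured) at 8.25. Squamous markers also reached 7.98 in male 2 of CRC + E171 at 14 days and 7.71 among the other 28 arrays, and pancreatic markers 10.11 over all arrays. Male 2 of CRC at 14 days had a female level of Xist, -1.60 on the log2 scale, against -2.34 to -0.70 in females and -8.51 to -6.53 in the rest of the males. Its Y-linked markers (2 of 4 measured) lay at -2.31, against -2.98 to -0.25 in females and 1.84 to 3.02 in the rest of the males, so both measures go against its male label. The main results that rest on these arrays are given with and without them where the remaining mice allow it. In bulk tissue, fewer cells of a type and less RNA per cell cannot be told apart.

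All levels below are log2 signals relative to the 75th percentile of the array, so 1 unit is a doubling, and levels of different genes are not compared. The 9 genes varied widely between mice. Over the 31 arrays Rsad2 ranged from -5.27 to 0.68 (median -2.04, 61.7-fold), Ifit2 from -2.67 to 2.35 (median -0.54, 32.5-fold), Isg15 from 0.78 to 5.70 (median 3.17, 30.3-fold) and Ifit3, the narrowest, from -1.88 to 1.89 (median -0.05, 13.6-fold). As 1 of the 2 Rsad2 probes was well above background on only 28 arrays, the lowest Rsad2 values are approximate. Its other probe alone ranged from -3.77 to 2.07. In all, 7 of the 9 had their highest group mean in CRC at 2 days, the exceptions being Ifit1 (CRC + E171 at 7 days) and Irf7 (CRC + E171 at 2 days). When the 8 group means of each gene were put in order, none of the 63 pairs of neighbours differed by more than both of their SDs, and 12 differed by more than the smaller SD. The order of neighbouring groups is therefore within the spread of the mice.

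**Figure D2:**
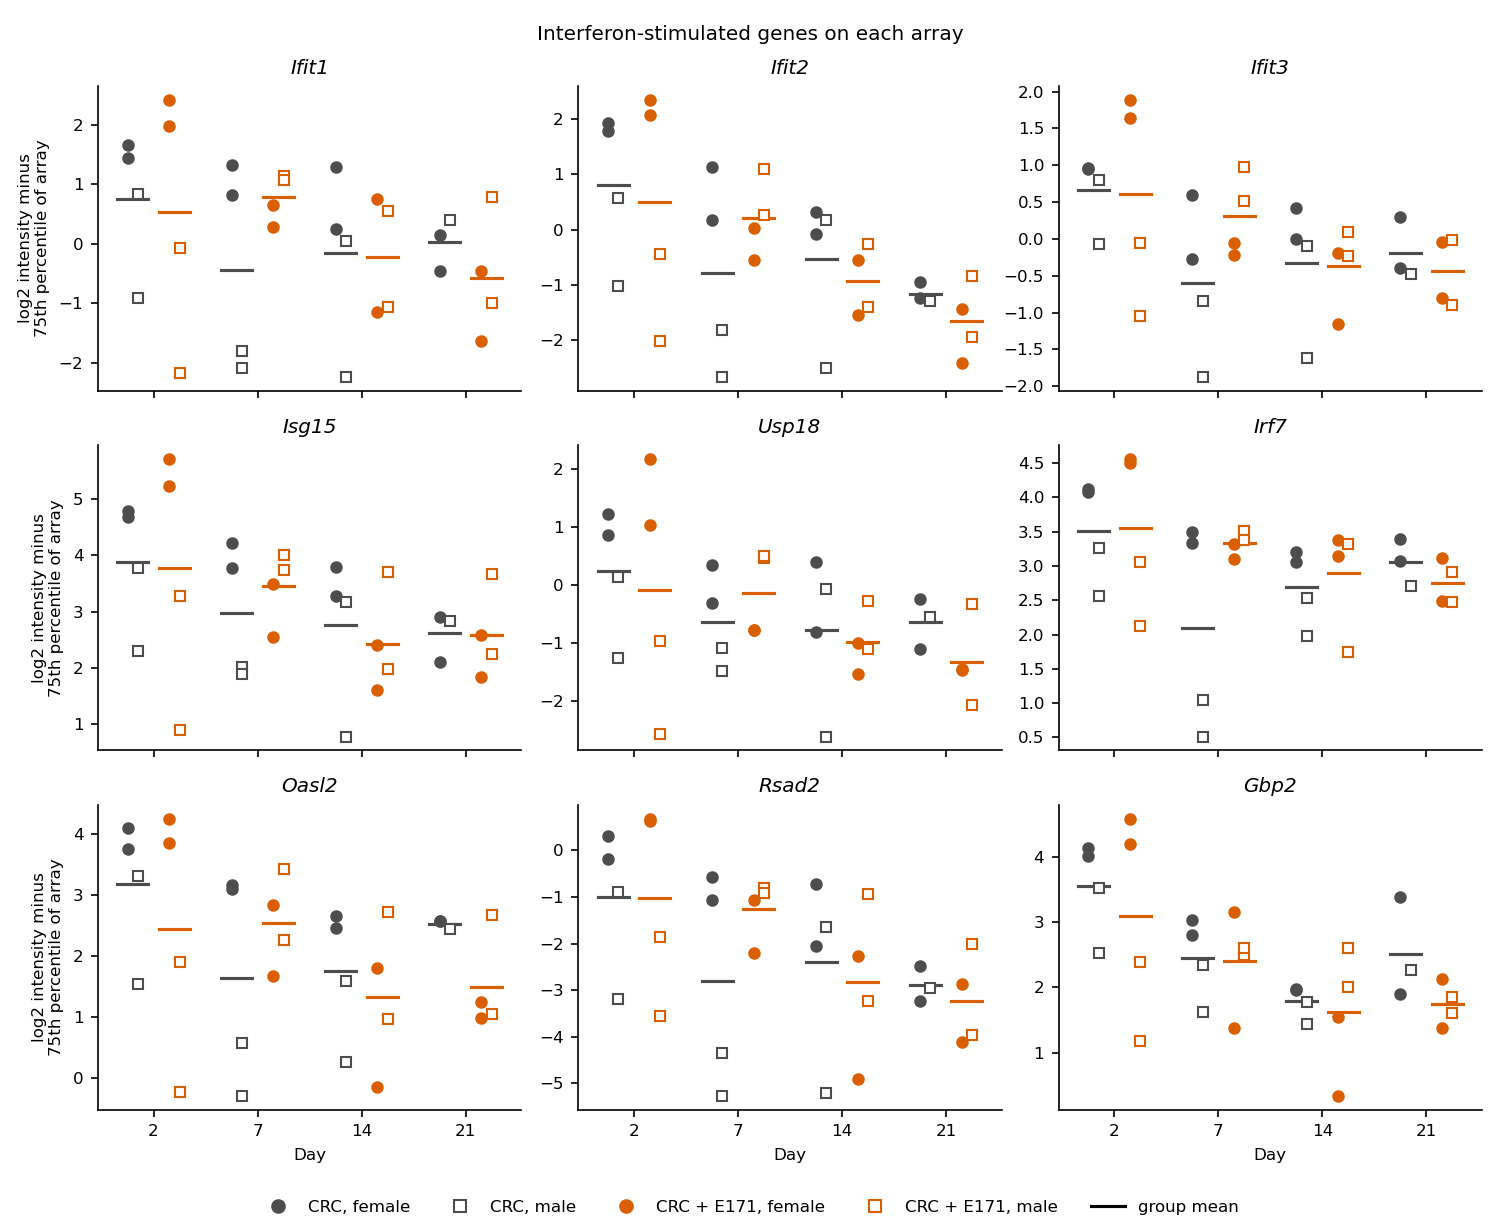
Log2 level of each of the 9 genes on every array, relative to the array's 75th percentile, by day (2, 7, 14 and 21). Points are mice coloured by exposure and shaped by sex and bars are group means; the 2 males of CRC at 7 days are the lowest points of Irf7, and the females of 2 days are at the top in most panels.

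The effect of E171 was tested first on all mice of a day. Irf7 at 7 days was the only call among the 9 genes on any day. Its levels in CRC were 3.34 and 3.49 in the females and 0.51 and 1.05 in the males, and in CRC + E171 3.11 and 3.32 in the females and 3.51 and 3.38 in the males. The exposed mice lay within a narrow band that overlapped the CRC females, and both CRC males lay far below. Irf7 was 1.23 higher with E171 on the log2 scale (SE 0.57, 95% CI 0.05 to 2.41), with an unadjusted p = 0.0418 and an adjusted p = 0.282 in limma and an exact two-sided permutation p = 0.314. Only the unadjusted p, with a fold change of 1.5 or more, made the call. Rsad2, Ifit1, Ifit2, Oasl2, Ifit3, Usp18 and Isg15 had positive differences of 1.56 (SE 1.10), 1.22 (SE 0.90), 1.0 (SE 0.86), 0.91 (SE 0.86), 0.91 (SE 0.55), 0.49 (SE 0.76) and 0.47 (SE 0.82), none past the test, and Gbp2 had -0.05 (SE 0.57). Thus 1 of 9 was called, against 6.93% of all genes called higher and 5.48% called lower at 7 days. The median of the 9 was 0.91, against -0.01 over all genes.

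On the other days no member was called. At 2 days 8 of 9 were lower with E171, with differences of -0.73 to 0.05 and a median of -0.22, where 1.55% of all genes were called higher and 0.172% lower. At 14 days 8 of 9 were lower, at -0.43 to 0.20 with a median of -0.20 (3.24% of all genes called higher and 3.1% lower). At 21 days all 9 were lower, at -1.04 to -0.04 with a median of -0.50 (0.844% higher and 1.82% lower). CRC then held 1 male and 2 females. With sex as a covariate 1 of 9 was higher (median -0.32), with the replicate block 2 (-0.23) and with array weights 3 (-0.21). Under the other scalings, filters, probe rules and batch terms 0 of 9 were higher. Lymphocyte markers were lower with E171 at 21 days too, with a median difference of -0.95 for T cells (6 of 6) and -0.71 for B cells (5 of 5), none of them called. T cell markers lay at -1.62 and 1.20 in the CRC females, 0.03 in the CRC male and -1.47, -0.80, -1.18 and -0.65 in CRC + E171, so that CRC female 1 was below all exposed mice and the other 2 CRC mice above them. Their part in the difference was not tested. The farthest were Oasl2 and Gbp2. Oasl2 at 21 days read 2.58 and 2.57 in the females and 2.45 in the male of CRC, and 0.99 and 1.26 in the females and 2.67 and 1.05 in the males of CRC + E171. Male 1 of the exposed mice lay just above the controls and the other 3 below them, giving a difference of -1.04 (SE 0.93) with an exact two-sided permutation p = 0.143. At 14 days male 2 of CRC, with the female level of Xist, had the lowest Isg15 of all arrays (0.78) and an Rsad2 of -5.21, and without that array no member was called at 14 days either, with 9 of 9 lower at -1.36 to -0.04. Without male 2 of CRC + E171 7 of 9 were lower, at -0.30 to 0.58, with no call. No member had groups without overlap on any day, and the lowest adjusted p outside 7 days was 0.919. With 4 mice against 4 the intervals were wide, for example -2.07 to 1.63 for Ifit1 at 2 days, and differences within them could not be told from 0.

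**Figure D3:**
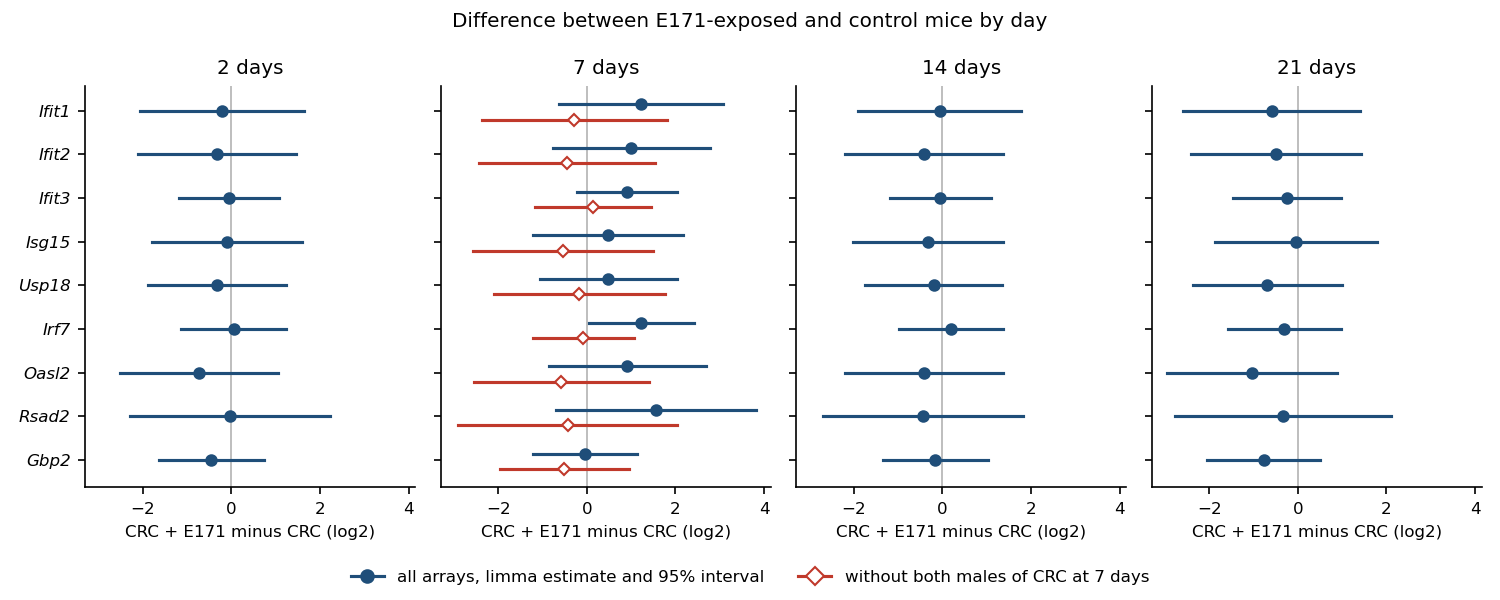
Difference between CRC + E171 and CRC in log2 units for each gene and day, with 95% confidence intervals from limma, and for 7 days also without both CRC males. Points right of 0 are higher with E171; at 7 days 8 of 9 are right of 0 in all mice and 1 of 9 without the CRC males.

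The difference at 7 days rested on the 2 CRC males that stood apart. Without them, 2 CRC females are compared with 2 females and 2 males of CRC + E171, so the groups are no longer balanced for sex, and the contrast within females is given below. In this comparison 1 of 9 genes was higher, the differences ranged from -0.58 to 0.15 with a median of -0.44, no gene was called, and Irf7 differed by -0.088 (95% CI -1.23 to 1.05). Over all genes, 2.3% were then called. Within the sexes, Irf7 in males was 2.66 (SE 0.41, adjusted p = 0.000524) higher with E171 in a 16-group limma fit. Rsad2 followed, with males at -5.27 and -4.34 in CRC and -0.82 and -0.92 in CRC + E171, a difference of 3.93 (SE 1.13, adjusted p = 0.0258). Ifit1 read -1.80 and -2.09 in the CRC males and 1.15 and 1.07 in the exposed males, a difference of 3.05 (SE 0.87, adjusted p = 0.0255). Both exposed males were thus above both CRC males by a wide margin in these genes. Ifit2 (2.92), Oasl2 (2.70) and Ifit3 (2.11) also passed at adjusted p of 0.0163, 0.0345 and 0.013, while Isg15 (1.92), Usp18 (1.78) and Gbp2 (0.56) did not. In males 6 of 9 genes were called, against 15.3% of all genes, and both exposed males were above both CRC males in 9 of 9, against 25.6%. The count of 6 fell to 1 without CRC + E171 male 1, to 2 without CRC male 1 or CRC + E171 male 2, and to 4 without CRC male 2, with all 9 genes higher with E171 each time. The share of all genes that passed moved as well, to 5.49% without CRC + E171 male 1, 9.24% without CRC male 1, 9.44% without CRC + E171 male 2 and 19.5% without CRC male 2. As both CRC males of 7 days stood apart, the contrast within males cannot be given without them. Neutrophil markers in the same males lay at 4.31 to 6.12 in CRC and -1.35 to 1.74 in CRC + E171. Macrophage (0.58 to 1.08 and 0.04 to 0.34), fibroblast (1.06 to 1.09 and -0.05 to -0.04) and endothelial markers (0.35 to 1.73 and -0.13 to 0.09) were also higher in CRC. Colonocyte (-6.93 to -4.43 and 0.48 to 0.59), goblet cell (-7.03 to -3.10 and 0.72 to 0.85) and NK cell markers (-0.73 to 0.13 and 0.25 to 0.69) were lower, and T cell markers overlapped. The part of these markers in the difference was not tested.

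In females of 7 days the differences were -0.97 to -0.20, all lower with E171 and none called. The difference of the E171 effect between the sexes was -4.75 to -1.20 (female minus male) at 7 days. It passed the adjusted test for Irf7, at -2.86 (SE 0.58, adjusted p = 0.0133), against 3.71% of all genes. Because the CRC males of 7 days enter both the contrast within males and the difference between the sexes, those 2 contrasts are not independent. At 2, 14 and 21 days no member passed for a difference between the sexes (0%, 0.00505% and 0.00505% of all genes). For E171 within a sex, no member passed in males at 2, 14 and 21 days (0%, 0.00505% and 0.0202% of all genes) or in females at 2, 7, 14 and 21 days (0%, 0%, 0.5% and 0%). CRC at 21 days held 1 male, so at 21 days the contrast within males and the difference between the sexes assume that this mouse varies like the mice of the other groups. The directions at 2 days nevertheless ran apart, with all 9 genes higher in females (0.13 to 0.81) and all 9 lower in males (-1.59 to -0.32) with E171; the lowest unadjusted p of the difference was 0.0349, for Ifit3. At 14 days the females spanned -2.20 to 0.13 and the males 0.27 to 1.35, with 9 of 9 higher with E171 in males. Without male 2 of CRC, with the female level of Xist, the males spanned -1.0 to 0.53 with 3 of 9 higher, without male 2 of CRC + E171, low in epithelial markers, 0.63 to 2.49 with 9 of 9, and without both -0.43 to 1.12 with 6 of 9, and no member passed the adjusted test in any of these. At 21 days the females spanned -1.45 to -0.30 and the males -0.65 to 0.12.

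In the other members at 7 days the CRC males were again below the CRC females. Ifit2 read 1.14 and 0.18 in the females and -2.67 and -1.81 in the males of CRC, and 0.03 and -0.54 in the females and 0.27 and 1.10 in the males of CRC + E171. Ifit3 read -0.28 and 0.60 in the females and -0.85 and -1.88 in the males of CRC, and -0.05 and -0.22 in the females and 0.97 and 0.52 in the males of CRC + E171. The CRC males were the lowest mice of both genes. For the modifier Isg15 the values were 4.21 and 3.77 in the females and 2.02 and 1.89 in the males of CRC, and 3.50 and 2.54 in the females and 4.01 and 3.74 in the males of CRC + E171. For its protease Usp18 they were 0.36 and -0.30 in the females and -1.48 and -1.08 in the males of CRC, and -0.77 and -0.77 in the females and 0.48 and 0.51 in the males of CRC + E171. In both genes the exposed males were above the exposed females, and the CRC females above the CRC males. Oasl2 read 3.16 and 3.09 in the females and -0.29 and 0.58 in the males of CRC, and 2.83 and 1.67 in the females and 3.43 and 2.26 in the males of CRC + E171. Gbp2 read 2.81 and 3.03 in the females and 1.62 and 2.35 in the males of CRC, and 3.15 and 1.39 in the females and 2.49 and 2.60 in the males of CRC + E171. For Gbp2 the lowest mouse was an exposed female.

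The mice of 2 days were split by sex. Females and males of a number lay on 1 slide, so these differences are within slides. Isg15 read 4.79 and 4.67 in the females and 2.30 and 3.77 in the males in CRC, and 5.23 and 5.70 in the females and 3.27 and 0.90 in the males in CRC + E171. Irf7 read 4.13 and 4.08 in the females and 2.56 and 3.26 in the males in CRC, and 4.50 and 4.56 in the females and 3.06 and 2.12 in the males in CRC + E171. Gbp2 read 4.01 and 4.12 in the females and 2.52 and 3.52 in the males in CRC, and 4.58 and 4.19 in the females and 2.39 and 1.19 in the males in CRC + E171. In each of these genes every female was above every male. Rsad2 read 0.30 and -0.19 in the females and -3.18 and -0.90 in the males in CRC, and 0.63 and 0.68 in the females and -1.86 and -3.56 in the males in CRC + E171. Ifit2 read 1.79 and 1.93 in the females and -1.02 and 0.57 in the males in CRC, and 2.07 and 2.35 in the females and -0.44 and -2.01 in the males in CRC + E171. Male 2 of CRC + E171 was the lowest of the 8 mice in both Ifit2 and Rsad2. Every female above every male held for 9 of 9 members, where 7.27% of all genes had all 4 females above all 4 males. Within CRC both females were above both males in 9 of 9 (19.7% of all genes), and within CRC + E171 in 9 of 9 (17.7%). Averaged over both exposures, females were 1.46 to 2.76 higher. The adjusted test was passed by Irf7, at 1.56 (SE 0.29, adjusted p = 0.0297), and Ifit2, at 2.76 (SE 0.54, adjusted p = 0.0422), against 0.359% of all genes. For the other 7 members the adjusted p ranged from 0.0522 to 0.125. Leaving out 1 array of 2 days at a time left from 0 to 7 members called, while all 9 stayed higher in females. The 7 calls came without CRC male 2, where 1.92% of all genes passed, and without CRC + E171 male 1, where 1.4% did. Without each of the other 6 arrays no member was called, and 0.0101 to 0.111% of all genes passed. T cell markers (6 of 6 measured) moved the same way at 2 days, with the CRC females at 1.90 to 1.94 and the CRC males at -1.97 to 0.95, and the exposed females at 0.69 to 1.75 and males at -2.02 to 0.09. B cell markers (5 of 5) lay at 1.52 to 1.60 in the CRC females and -1.94 to 0.87 in the CRC males, and at 0.42 to 1.12 and -1.74 to 0.07 in the exposed. Macrophage markers (7 of 7) lay at 0.14 to 0.28 and -0.25 to -0.08 in CRC, and at 0.12 to 0.41 and -0.78 to -0.11 in CRC + E171. All 3 lists were thus higher in every female than in every male of the same exposure. Endothelial markers (5 of 5) ran the other way, at -0.61 to -0.55 in the CRC females and 0.12 to 0.13 in the CRC males, and at -0.65 to -0.48 and 0.00 to 0.06 in the exposed. Fibroblast markers (5 of 5) also lay lower in females, at -0.53 to -0.49 against -0.31 to 0.28 in CRC and -0.49 to 0.17 against 0.18 to 0.25 in CRC + E171. NK cell markers (5 of 5) overlapped between the sexes in CRC, at 0.12 to 0.95 in females and -0.73 to 0.44 in males, and not in CRC + E171, at 0.37 to 1.47 and -0.19 to 0.13. Colonocyte markers were at 0.44 to 0.50 in the CRC females against 0.76 to 1.14 in the CRC males, and overlapped between the exposed sexes. The part of these markers in the difference was not tested.

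**Figure D4:**
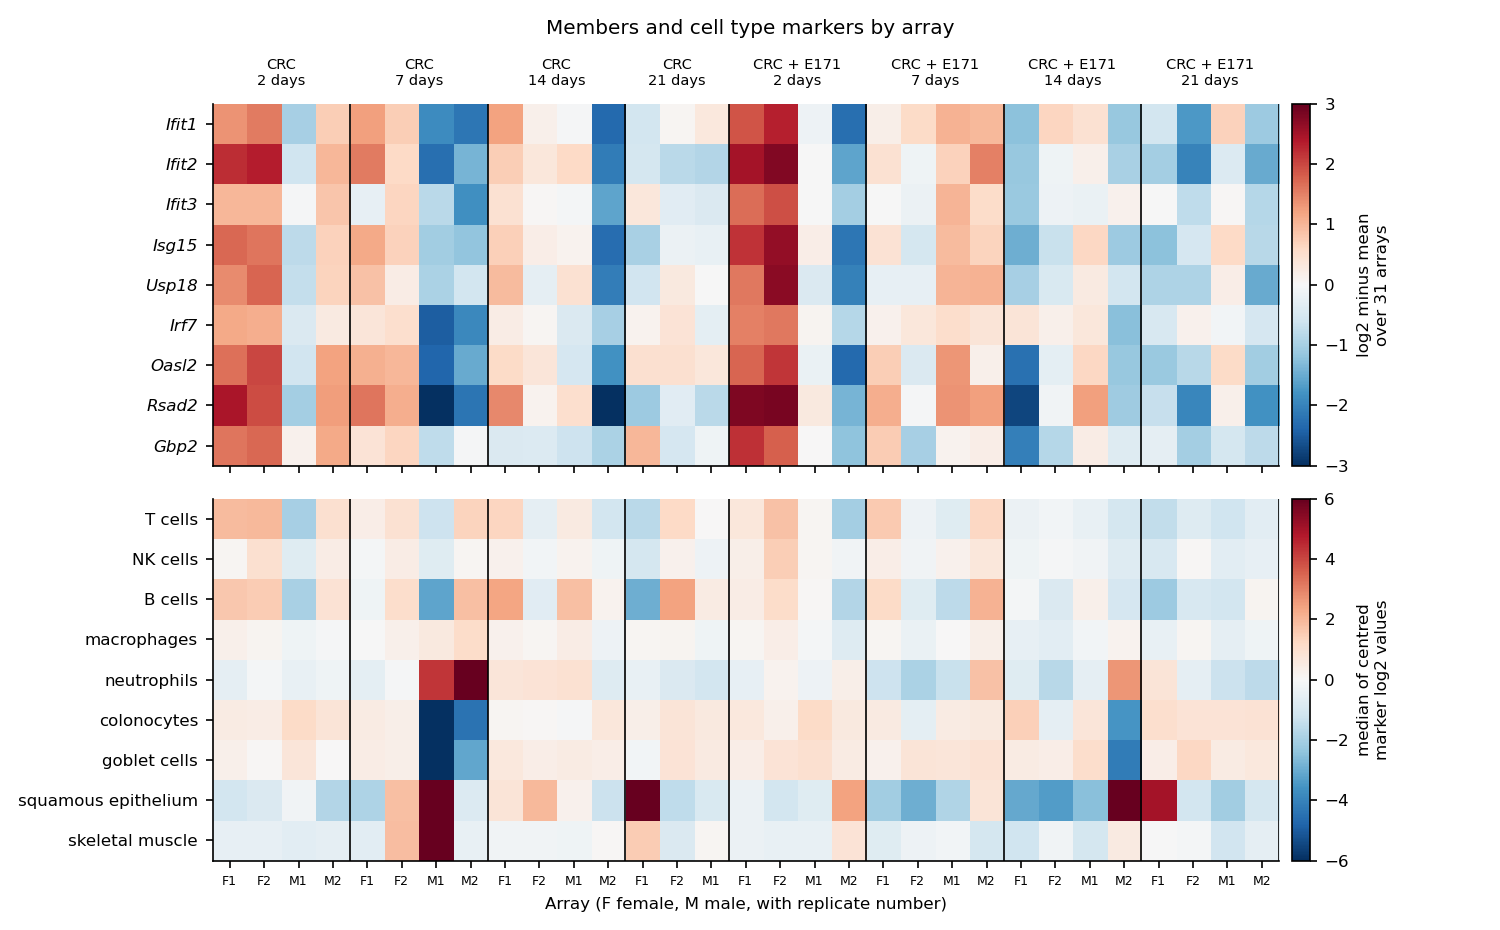
Level of each gene on each of the 31 arrays in log2 units after subtracting the gene's mean, with columns ordered by group and sex, above the median of the centred markers of each cell type; colours stop at the ends of the 2 scales. The 4 females of 2 days are above the mean in all 9 genes; the 2 males of CRC at 7 days are below it in Irf7, Rsad2 and Ifit1.

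Over the 8 groups females were 0.46 to 1.10 higher, with all 9 members in the same direction and 1 adjusted call (0.162% of all genes), Irf7 at 0.97 (SE 0.15, adjusted p = 0.00818). Without both CRC males of 7 days Irf7 was 0.73 higher in females with an adjusted p = 0.13, and no member was called. Without male 2 of CRC at 14 days it was 0.94 higher with an adjusted p = 0.0212. In CRC at 7 days alone, females were 0.93 to 3.99 higher. There 5 of 9 were called (Irf7, Rsad2, Ifit1, Ifit2 and Oasl2), against 15.6% of all genes, and both females were above both males in 9 of 9, against 28.8%. The direction was not shared by all groups. In CRC + E171 females were higher in 9 of 9 genes at 2 days, but in 0 of 9 at 7 days (-1.27 to -0.23), 2 of 9 at 14 days (-1.51 to 0.73) and 3 of 9 at 21 days (-0.94 to 0.11). In CRC they were higher in 9 of 9 at 14 days (0.36 to 2.05), 7 of 9 there without male 2, and in 6 of 9 at 21 days (-0.55 to 0.53).

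Time was tested next. In CRC, all 9 genes were lower at 7 days, after DSS, than at 2 days, during it, by 0.87 to 1.82 log2 units. Irf7 (-1.41, adjusted p = 0.225) and Ifit3 (-1.26, adjusted p = 0.25) were called by the unadjusted p, against 6.2% of all genes called lower. Without both CRC males of 7 days 3 of 9 were higher, at -0.63 to 0.32, with no call. Tests across the 4 days called no member after adjustment in CRC, in CRC + E171, or for a change of the E171 effect between days, and no gene of the array either (0%, 0% and 0%). At an unadjusted p under 0.05, Gbp2 passed in CRC (against 9.89% of all genes), none passed in CRC + E171 (14.6%) and none for the change of effect (6.52%). Gbp2 in CRC went from a mean of 3.54 ± 0.73 (SD, n = 4) at 2 days to 2.45 ± 0.62 (SD, n = 4) at 7 days, 1.79 ± 0.25 (SD, n = 4) at 14 days and 2.51 ± 0.77 (SD, n = 3) at 21 days. The mean E171 effect over the 4 days was -0.36 to 0.29 with no call (1.79% of all genes). CRC and CRC + E171 of the same day never shared a slide. With slide as a term, the mean effect over 7 and 21 days was -0.33 to 0.62 (4.47% of all genes called) and that over 2 and 14 days -0.57 to 0.13 (2.26%), with no member called.

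The members rose and fell together from mouse to mouse. Over the 31 arrays the 36 pairs of members had a Pearson r of 0.56 to 0.95 with a median of 0.85, and after subtracting group means 0.56 to 0.95 with a median of 0.84. Irf7 was related to each of the other 8 genes, from r = 0.56 and rho = 0.53 for Gbp2 to r = 0.82 and rho = 0.81 for Ifit1. Permutation p-values adjusted over the 8 relations were 0.00093 for Pearson's r and 0.00277 for Spearman's rho of Gbp2. The raw p of r was 1e-05 for the other 7, the smallest that the permutations can give, which is 1.14e-05 after adjustment. Without the 2 arrays farthest from the median of Irf7, both CRC males of 7 days, r was 0.66 to 0.84. All members were read on the same arrays and share their scaling.

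Of 19732 genes with a value on every array, those most like the mean of the members were Oas3 (r = 0.95), Cmpk2 (0.94), Rtp4 (0.94), Apol9a (0.94), Apol9b (0.94), Dtx3l (0.93), Parp14 (0.93) and Zbp1 (0.93). Oas3 is an oligoadenylate synthetase and Zbp1 a nucleic acid sensor. Least like were Ccdc85b (-0.82), Sat2 (-0.80) and Extl2 (-0.79). Likeness was also counted by promoter letters. An r over 0.5 with the members' mean was found for 3.48% of 14977 other genes without an ISRE core match, 12.6% of 468 with 1 match and 43.2% of 37 with 2 or more. These correlations are across genes of the same arrays, so genes are not independent replicates. The ISRE core lay in 3 of the 5 most like genes with a promoter entry (Oas3, Apol9a and Apol9b), in none of the 3 least like, and in 11 of 29 other interferon-stimulated genes with an entry.

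The rest of the pathway was read from 7 lists, some of which share genes. Over all genes 6.93% were called higher and 5.48% lower with E171 at 7 days, 3.24% and 3.1% at 14 days, and 0.844% and 1.82% at 21 days. Without both CRC males of 7 days 2.3% were called at 7 days in either direction. The ligands had 15 of 21 genes tested. Their called genes had low group means, of -6.09 to -2.47, and Ifnb1, Ifna4 and Ifne were not kept by the filter. At 7 days Ifnk was called higher with E171 (1.99) and Ifna5 lower (-0.59). At 14 days Ifna12 (0.72) and Ifnl3 (0.75) were called higher and Ifna14 (-0.80) and Ifnab (-0.87) lower, and none was called at 2 or 21 days. Of 6 receptor chains 1 was called in all, Ifnar2, a chain of the type I receptor, at -0.79 at 7 days. Of 12 nucleic acid sensors and adaptors, Tlr3, the sensor of double-stranded RNA, was called higher at 7 days (0.98) and Tlr7, which senses single-stranded RNA, lower at 21 days (-0.66). Of 10 JAK, STAT and IRF genes, Irf1 was called higher at 7 days (0.93). None of these passed the adjusted test in limma, and without both CRC males of 7 days Ifnk (0.79), Ifnar2 (-0.18), Tlr3 (0.30) and Irf1 (-0.04) were not called, while Ifna5 stayed called lower (-0.62) and Ifna13 (-0.77) was called lower as well. In males at 7 days, against 15.3% of all genes, the adjusted test was passed as higher by 1 ligand, Ifnk (3.19), 1 receptor chain, Ifngr2 of the interferon gamma receptor (1.41), 4 sensors, Tlr3 (1.75), Ifih1 (1.90), Dhx58 (2.02) and Zbp1 (2.00), and the transcription factor gene Irf1 (1.98). It was passed as lower by Ifnar2 (-1.33) and by Myd88, an adaptor of Toll-like receptors (-0.82). These counts moved with 1 mouse left out, and the share of all genes moved with them, as given above. The sensors that passed as higher were 1 without CRC male 1 or CRC + E171 male 1, 3 without CRC + E171 male 2 and 5 without CRC male 2. The JAK, STAT and IRF genes were 0 without CRC male 1 and 3 without CRC male 2, the ligands 0 without CRC male 1 or CRC + E171 male 2, and the receptor chains 0 without CRC male 1. Of the genes that passed as lower, the receptor chain was lost without CRC male 2, CRC + E171 male 1 or either CRC female, which enter only the shared spread, and the adaptor without CRC + E171 male 1.

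The other type I and III interferon targets were mostly higher with E171 at 7 days. Of 41 tested, 35 were higher, with a median of 0.56 against -0.01 for all genes. Of these, 8 were called higher, against 6.93% of all genes, led by Ifit1bl1 (2.02), Ddx60 (1.85), the dynamin-like Mx1 (1.64) and Ifit1bl2 (1.64). Ifitm3, which restricts virus entry, was called lower (-1.13), against 5.48% of all genes. Without both CRC males of 7 days 12 of 41 were higher, with a median of -0.12 and a range of -0.55 to 0.50, and none was called. In males at 7 days 21 passed the adjusted test as higher, against 9.02% of all genes (15.3% in either direction), among them Ifit1bl1 (4.97, adjusted p = 0.000146) and Oasl1 (2.65, adjusted p = 0.000329), and 2 as lower (Ifitm3 and Ifi204). The male contrast rests on the CRC males that stood apart, and with 1 male left out 8 (without CRC male 1), 26 (CRC male 2), 9 (CRC + E171 male 1) and 13 (CRC + E171 male 2) passed as higher, where 9.24%, 19.5%, 5.49% and 9.44% of all genes passed in either direction. In the same contrast 10 of the 15 gamma-induced GTPases were higher (median 0.58) and 12 of the 14 gamma targets (median 0.79), against a median of 0.003 over all genes. Of the GTPases 0 passed (2 without CRC male 2), and of the gamma targets 0 passed. At 2 and 14 days none of the 41 was called, and at 21 days Isg20 was called higher (0.69), against 0.844% of all genes.

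Targets of interferon gamma were mostly lower with E171 at 2 and 21 days. Of 15 guanylate-binding and immunity-related GTPases other than Gbp2, 1 was higher with E171 at 2 days (median -0.68) and 9 at 14 days (median 0.09). At 7 days 10 were higher with a median of 0.08, and without both CRC males of 7 days 3 were, with a median of -0.42. At 21 days 0 of 15 were higher, with a median of -1.29 and a range of -1.68 to -0.55. None of the 15 was called on any day. Of 14 chemokines, antigen-processing genes and regulators, 2 were higher at 2 days (median -0.39) and 8 at 14 days (median 0.02). At 7 days 11 were higher (median 0.27), and without both CRC males 4 were (median -0.15). At 21 days, where CRC held 1 male and 2 females, 1 was higher, with a median of -0.50. Tap1, a subunit of the peptide transporter for antigen presentation, was then called lower (-1.43), against 1.82% of all genes. The T cell markers, at a median difference of -0.95, and the NK cell markers, at -0.25, were lower on the same day, and their part was not tested. In the sex comparison at 2 days, 15 of 15 GTPases were higher in females and 7 passed the adjusted test, against 0.359% of all genes, among them Iigp1 (2.99), Tgtp2 (2.85), Igtp (2.50) and Gbp9 (2.44). All 15 stayed higher in females with any 1 array of 2 days left out, but 13 passed without CRC male 2 or CRC + E171 male 1, 1 without CRC + E171 female 1, and 0 without any of the other 5. All genes passed at 1.92%, 1.4% and 0.111% in the first 3 of these fits and at 0.0101 to 0.0354% in the other 5. Socs1, a feedback inhibitor of interferon signalling, was 2.06 higher, and Cgas, the sensor of cytosolic DNA, was 1.26 higher. Of the 41 other interferon-stimulated genes 39 were higher in females at 2 days and 1, Dtx3l, passed (1.33). Without CRC + E171 male 1 or CRC male 2 these counts rose, to 19 and 16 of the 41, to 10 and 9 of the 14 gamma targets and to 3 and 2 of the 12 sensors, and without any other array of 2 days none of these 3 lists had a gene that passed.

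**Figure D5:**
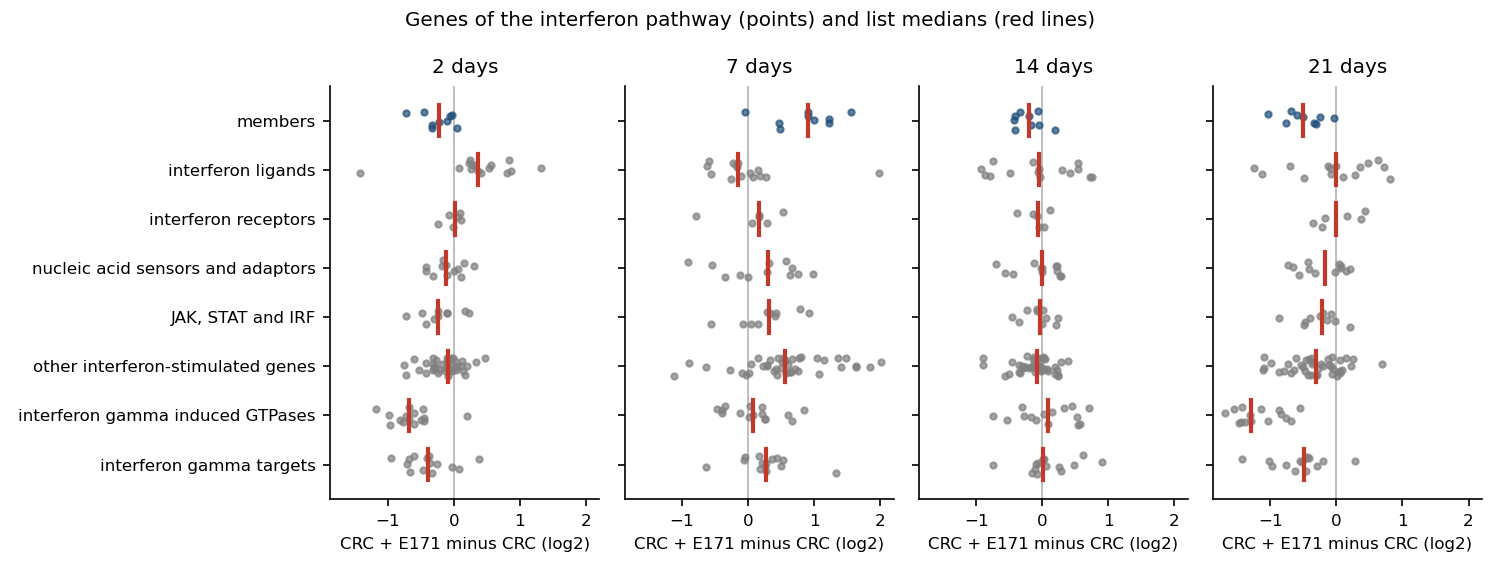
Log2 difference between CRC + E171 and CRC for every gene of the members and the 7 pathway lists, by day. Points are genes and red lines are list medians; the other interferon-stimulated genes lie mostly right of 0 at 7 days and the interferon gamma induced GTPases all left of 0 at 21 days.

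Markers of immune and other cell types were set beside the members' mean over the 31 arrays as a description. T cell markers had r = 0.66 (0.63 after subtracting group means), NK cell markers (5 of 5) 0.66 (0.58), B cell markers (5 of 5) 0.44, macrophage markers (7 of 7) 0.24, plasmacytoid dendritic cell markers (6 of 6) 0.18 and neutrophil markers (7 of 7) -0.29, with a Spearman rho of -0.05. Colonocyte markers had r = 0.35, and a Spearman rho of -0.08. Goblet cell markers had r = 0.38, and a Spearman rho of 0.13. Endothelial, fibroblast and smooth muscle markers had r = -0.45, -0.40 and -0.39 (-0.43, -0.47 and -0.51 after subtracting group means). Of the NK cell markers 1 was well above background on all arrays. Of the plasmacytoid dendritic cell markers, Klk1 had a mean of 5.50 and fell to -2.41 on 1 array. Cox6a2 and Ly6d reached 4.92 and 6.18 from means of -2.33 and -0.31. Whether this list reads plasmacytoid dendritic cells in this tissue was not tested.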

How the data were processed

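Total RNA of the distal colon was hybridised to 31 one-colour Agilent 60K mouse arrays, which the authors scanned and extracted with Agilent Feature Extraction 10.7.3.1. The deposited intensity is the processed signal of each spot, background-subtracted and not normalized between arrays. The authors also deposited a log2 matrix of 42568 probes, filtered, with missing values imputed by K-nearest neighbours. Its array medians were 9.43 to 9.67, its normalization is not given in the sources used here, and it served only as an alternative. The authors compared groups in limma. The treatment protocol of the labels names water gavage for every sample, and groups were taken from the treatment given among the sample characteristics.

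Here each log2 signal was taken relative to the 75th percentile of its array. Spots flagged as outliers were left out. A probe was kept where, in at least 1 group, 60% of the arrays were well above background and the group averaged a log2 signal of 4 or more. This left 42787 of 56605 probes, named through RefSeq accession (26956), symbol (7020) or synonym (368), with 8443 unnamed and left out, and averaged per gene to 19797 genes. limma 3.58.1 (R 4.3.3) was fitted over the 8 groups, and over 16 groups of exposure, day and sex for the sex contrasts. A call was a linear fold change of 1.5 with unadjusted p under 0.05 (the study states its cut-off of 1.5 as a log2 fold change, which was run as an alternative), and for days and sex a Benjamini-Hochberg adjusted p under 0.05 over all genes. The contrasts within each sex were added after the data were seen. Correlation p-values came from 100000 permutations. The fits were tested on simulated data.

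The members, lists and tests were chosen with earlier results of these data known. Outside the members, genes are named where called (up to 4 per list, day and direction), or as the 8 most and 3 least like the members' mean; the genes of the sex contrasts were chosen after their values were seen. The alternatives were other scaling, background correction, filters, probe rules, batch terms, array weights, the replicate block and leaving out arrays. The p-values measure the spread between mice, and for arrays their number limits the precision.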

Additional observations from a re-analysis of the deposited data

Results flagged for a closer look

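In 4 of 63 sets of 4 mice (9 members in 7 groups), 1 mouse lay so far from its nearest neighbour that the gap, as a share of the group's range, passed the critical value of Dixon's test, and chance gives about 1 in 20. Ifit2 was lowest in male 2 of CRC at 14 days, with a gap of 0.861 of the range; this mouse had the female level of Xist. Ifit3 was lowest in male 1 of CRC at 2 days, with a gap of 0.838. Irf7 was lowest in male 2 of CRC + E171 at 14 days, with a gap of 0.857; this array was low in colonocyte and goblet cell markers. Oasl2 was highest in male 1 of CRC + E171 at 21 days, with a gap of 0.841. Irf7 was also picked out because its E171 effect at 7 days differed between the sexes, by -2.86 log2 units (female minus male). Beside it stand the 2 CRC males low in colonocyte markers, and their part was not tested.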

How the results depend on the processing

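Groups of 4 mice, with 2 per sex, limit every comparison. At 7 days 1 member (Irf7) was called, and 0 with the brightest probe per gene, with only the 2 groups compared, with scan day as a fixed block, with array weights (Irf7 at 0.13), by adjusted p, and, chosen after seeing the data, with the fold change of 1.5 read on the log2 scale and, also chosen after seeing the data, without both CRC males of 7 days or without the 3 arrays low in colon epithelium (Irf7 at -0.088 in both). Leaving out 1 array at a time gave 0 to 2 calls at 7 days: 0 without CRC male 1 (Irf7 at 0.70), CRC male 2 (0.88), or CRC + E171 male 1 (1.17), male 2 (1.21) or female 2 (1.23), and 2 without CRC female 2, which added Ifit3 (1.31). At 21 days no member was called, and 1 with only the 2 groups compared (Oasl2 at -1.04). The adjusted call for sex fell from 1 to 0 without both CRC males of 7 days. The difference of the E171 effect between sexes at 7 days gave 1 call, 2 with normexp background correction, with the stricter filter or without male 2 of CRC at 14 days, and 0 to 2 with 1 array left out (0 without CRC female 1, CRC female 2 or CRC + E171 male 1). Sex at 2 days gave 2 calls, 5 with normexp or the stricter filter, 4 without male 2 of CRC at 14 days, 1 with the authors' values, and 0 to 7 with 1 array left out: 7 without CRC male 2 or CRC + E171 male 1, and 0 without any other array of 2 days. E171 in males at 7 days gave 6 calls under each scaling and filter tried and 1 to 6 with 1 array left out (2 without CRC male 1 or CRC + E171 male 2, 1 without CRC + E171 male 1). The other counts stayed within 1.5 times, in 146 of 163 cases. Of 576 member and day values under alternatives, 38 changed sign. The cause of these changes was not tested.

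With the replicate block the members called were 1 at 7 days and 0 at 2, 14 and 21 days, as without it. Same-numbered mice of a sex and day had a median r of 0.16 over 15 pairs (lowest -0.18, 8 over 0.1). Other pairs of the same day had a median r of -0.04 over 45 pairs (lowest -0.53, 10 over 0.1). These values do not settle whether the numbers pair the mice.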
